A study of Mus musculus with 12 samples.

Results

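The sterol and fatty acid synthesis genes examined here are 34 of the 40840 genes in the files, taken by name from the textbook pathways: 17 enzymes that build cholesterol, 5 genes of the SREBP control system, 6 genes that supply acetyl-CoA and assemble the fatty acid chain, and 6 desaturases and elongases that finish it. All 34 are in the files, and all 34 were tested. They were measured in total RNA from an immune cell fraction of mouse liver, which the labels call hepatic macrophages, in 4 groups of 3 male mice. WT-NCD and WT-HFD mice were wild type of C57BL/6 background, and Casp11-/- NCD and Casp11-/- HFD mice (strain B6.129S4(D2)-Casp4tm1Yuan/J) carried a germline deletion of caspase-11 that affects all cells, hepatocytes included. Each genotype received a normal chow diet (NCD) or a high-fat diet with added cholesterol (HFD), and the diets differed in protein and carbohydrate as well as fat. The mice were 8 to 10 weeks old at the start, and the groups were compared at 12 weeks of feeding. The fraction was made from digested, perfused liver by a Percoll step that separates immune cells from hepatocytes, and it was not sorted by a surface marker.

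Cells make cholesterol from acetyl-CoA by way of mevalonate, farnesyl diphosphate and squalene, and make fatty acids from the same acetyl-CoA by way of malonyl-CoA. Both pathways are set by the sterol regulatory element binding proteins. SREBP-2, from Srebf2, acts mainly on the sterol enzymes, and SREBP-1, from Srebf1, mainly on the fatty acid genes. Both are held in the endoplasmic reticulum by SCAP and the INSIG proteins while sterols are plentiful, and are carried to the Golgi and cut free when sterols run low. Srebf1 and Scd1 are also known targets of the liver X receptors, which sense oxysterols. The question put to the data was how the transcripts of these steps differed with diet and with the caspase-11 genotype.

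The deposited values are TPM, a share of each library's transcripts that allows for gene length, with a floor of 1.01 TPM in every library. The 5 genes of U3 small nucleolar RNA took 1.24% to 4.85% of the total in the 5 NCD libraries other than WT-NCD replicate 3. In the 6 HFD libraries they took 25.8% to 58.5%. Another noncoding RNA, 7SL, took 14.5% to 52.8% in those NCD libraries, the most in Casp11-/- NCD replicate 2, and 12.4% to 35.8% on HFD. Protein-coding genes were left with 21.3% to 41.5% on NCD and 14.5% to 24.2% on HFD. Over all genes the log2 fold change on HFD had a median of -0.39 on deposited TPM. Values are therefore also given on a protein-coding scale, in which the protein-coding genes of every library were brought to a common total, and there the median of all genes was -0.03. On that scale the floor differs between libraries. It was 0.78 and 0.69 in WT-NCD replicates 1 and 2, 1.2 in Casp11-/- NCD replicate 2 and 1.06 to 1.76 in the 6 HFD libraries. WT-NCD replicate 3 stood apart, with r of -0.27 to -0.07 to the other libraries across genes, which are not independent, against 0.85 to 0.99 among those 11, and with 39677 genes above the floor against 12940 to 18775. Results are given with all 12 libraries and without it. Casp4, the gene of caspase-11, was at 12.1, 15.6 and 8.94 TPM in WT-NCD, 7.09, 5.6 and 11.4 in WT-HFD, 4.93, 2.56 and 15.2 in libraries carrying the Casp11-/- NCD label and 2.78, 8.68 and 4.73 in those labelled Casp11-/- HFD. These ranges overlap, and TPM per gene does not show which exons were read, so it is no check of the genotype, which is given as labelled.

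Transcripts of cell type markers differed between the diets. In the 11 libraries, the 6 B cell markers summed to 524 to 1140 on NCD and 211 to 342 on HFD on the protein-coding scale, and 6 of 6 were lower in every HFD library. The 9 Kupffer cell and macrophage markers summed to 67.9 to 224 on NCD and 348 to 889 on HFD, with 6 of 9 higher in every HFD library, and the 6 sinusoidal endothelial markers to 37.4 to 347 and 480 to 1542, with 6 of 6 higher. The 12 hepatocyte markers, which define cells that the fraction should lack, summed to 5304 to 32010 on NCD and 12960 to 29210 on HFD. The 5 stellate cell markers summed to 9.08 to 17.6 on NCD and 21.3 to 49.8 on HFD, without overlap of the sums, and 1 of 5 was higher in every HFD library. The 7 T and NK cell markers were at 202 to 469 and 136 to 250, the 5 neutrophil markers at 259 to 661 and 141 to 4608 (4608 in Casp11-/- HFD replicate 2 alone), the 5 monocyte markers at 182 to 888 and 149 to 620 and the 5 cholangiocyte markers at 15.9 to 82.5 and 12.9 to 46.8. No marker of these 9 lists was at the floor in all 11 libraries. Of all genes tested, 3.99% were lower and 4.13% higher in every HFD library on the protein-coding scale, and 5.60% and 0.390% on deposited TPM. On deposited TPM 6 of 6 B cell markers were again lower and 6 of 9 macrophage markers higher. The macrophage sums overlapped there, at 57 to 366 on NCD and 278 to 823 on HFD. So did the endothelial sums, at 52.7 to 451 and 275 to 1330, with 0 of 6 higher in every HFD library. The stellate sums overlapped, at 14.3 to 21.7 and 14.8 to 35.7. The part of these shifts in the results that follow was not tested, and in a bulk sample fewer cells of a type and less RNA per cell cannot be told apart.

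**Figure D1:**
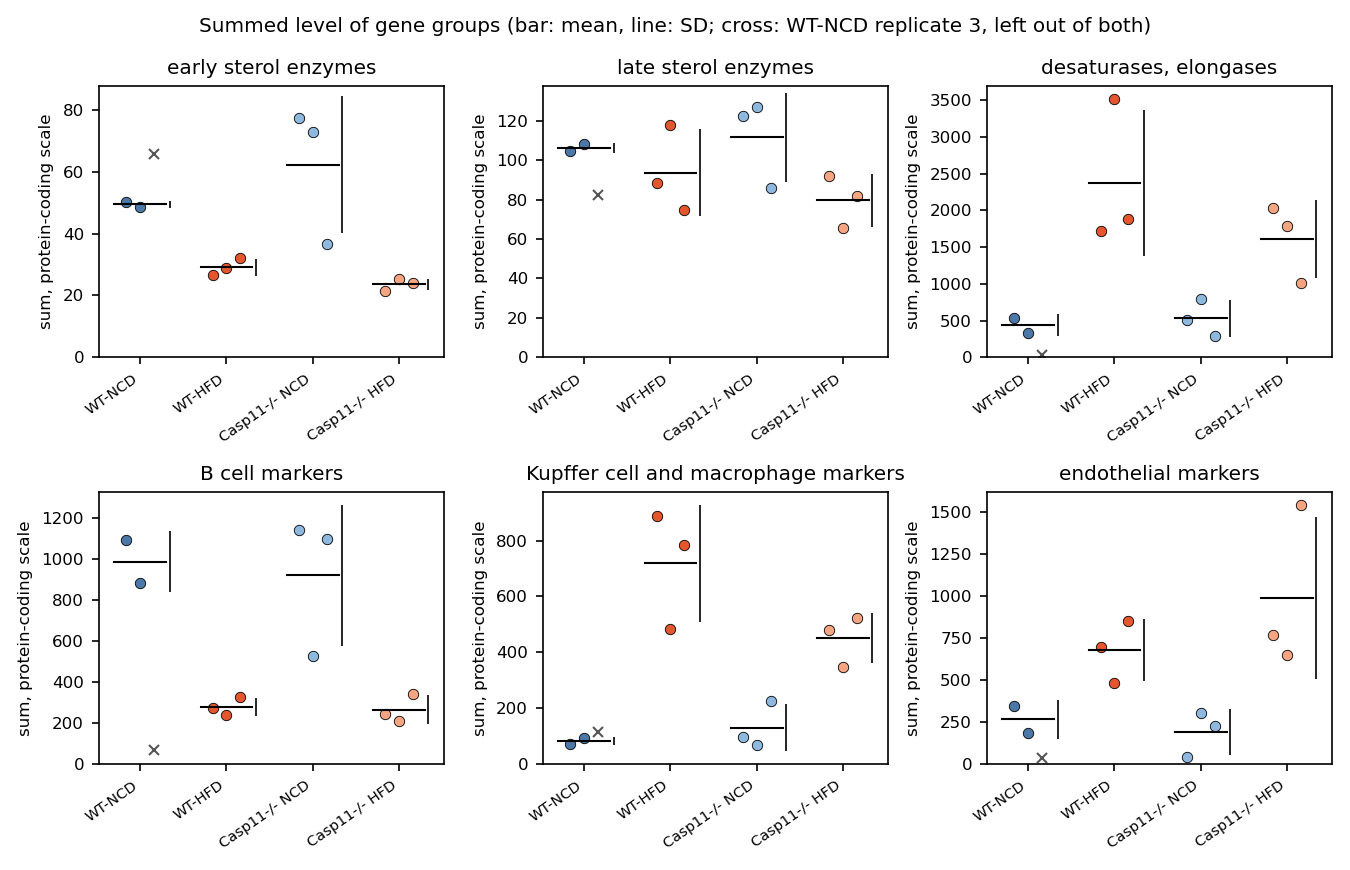
Summed levels of gene groups on the protein-coding scale (vertical axes) in the 4 groups of mice (horizontal axes), with points for libraries, bars for means, lines for SD (n = 2 in WT-NCD, otherwise n = 3) and a cross for WT-NCD replicate 3. The sum of the early sterol enzymes was 36.8 to 77.6 on NCD and 21.6 to 32.1 on HFD without overlap. The sum of the desaturases and elongases, of which Scd1 is the most abundant, was higher on HFD. Summed B cell markers were lower and summed macrophage and endothelial markers higher.

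Without WT-NCD replicate 3, 11 of the 17 sterol enzymes and Srebf2 fell on HFD on deposited TPM, and Scd1 rose. Over both genotypes and with all 12 libraries, 0 of the 34 genes passed an adjusted p of 0.05 in limma on log2(TPM + 1), where 0.554% of all genes tested did. At an unadjusted p under 0.05, 16 of the 34 genes were past the threshold, 15 of them lower and 1, Scd1, higher, against 16.8% of all genes. Of these 15, 14 were sterol enzymes. Without WT-NCD replicate 3, limma called 16 of the 34 on deposited TPM, 15 lower and 1 higher, where 18.3% of all genes were called and 17.3% were called lower. On the protein-coding scale without that library, 13 of the 34 were called, 9 lower and 4 higher, where 13.8% of all genes were called, 5.94% lower and 7.90% higher. The median log2 fold change of the 34 genes was -0.62 with all libraries (-0.61 for all genes tested), -0.78 without WT-NCD replicate 3 (-0.39 for all genes) and -0.26 on the protein-coding scale (-0.03 for all genes).

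Called in both fits without WT-NCD replicate 3 were 10 genes. Of these, 9 fell, namely Mvd, Idi1, Fdps, Sqle, Cyp51, Msmo1, Nsdhl and Dhcr7 of the sterol enzymes and Srebf2, and Scd1 rose. Another 6 fell on deposited TPM alone (Fdft1, Lss, Tm7sf2, Scap, Acly and Acss2), and 3 rose on the protein-coding scale alone (Srebf1, Insig2 and Elovl5). The counts turned on single libraries. The share of all genes called was not computed for the overlap of the fits or for fits with a further library left out. These counts therefore have no background beside them. Without WT-NCD replicate 2, which left 1 WT-NCD library, 4 genes were called on deposited TPM and 3 on the protein-coding scale, and without Casp11-/- NCD replicate 2 there were 23 and 18. Sqle, Cyp51 and Scd1 kept their call on the protein-coding scale with each of the 11 libraries left out in turn, and Sqle, Fdps, Cyp51 and Srebf2 did so on deposited TPM.

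**Figure D2:**
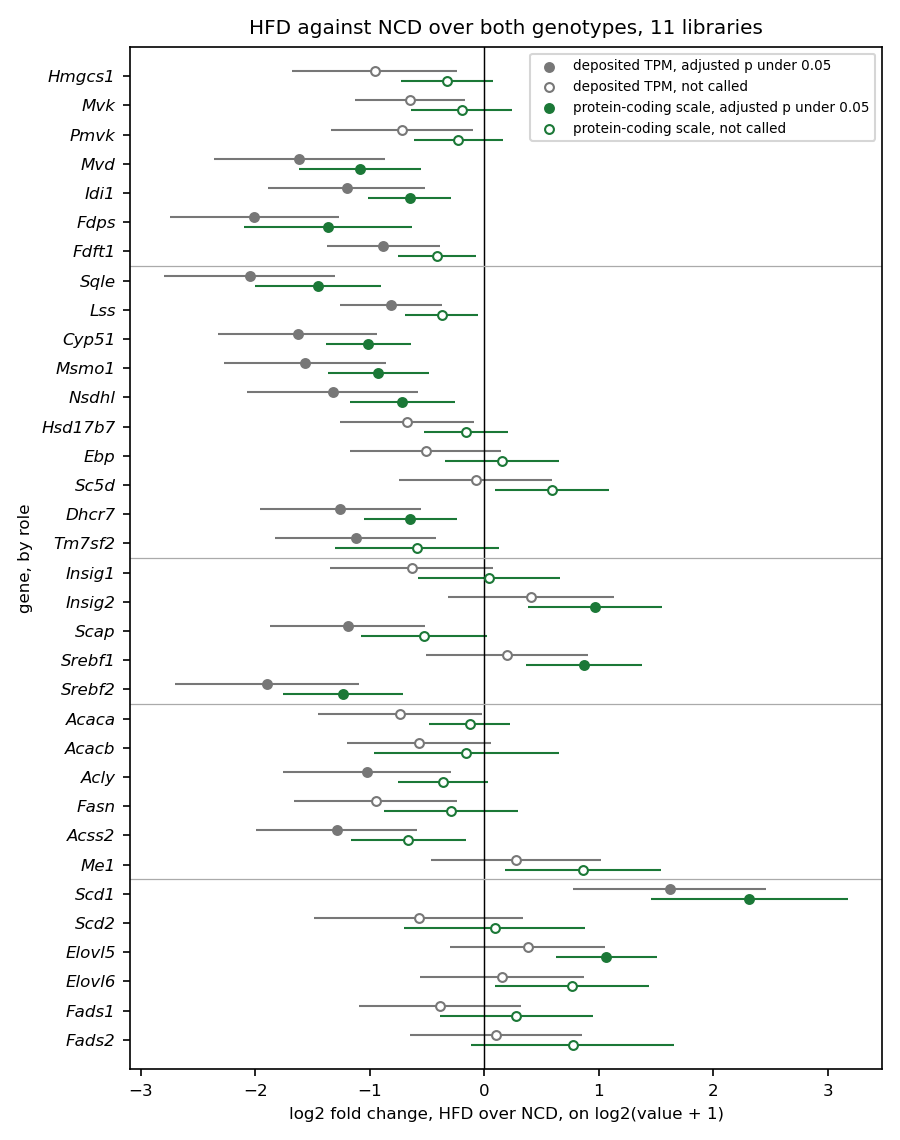
Log2 fold change of HFD over NCD over both genotypes (horizontal axis) for each of the 34 genes by role (vertical axis), from limma on log2(value + 1) in 11 libraries, with 95% confidence intervals, on deposited TPM (grey) and the protein-coding scale (green). Filled points passed an adjusted p of 0.05, which held for 16 genes on deposited TPM and 13 on the protein-coding scale.

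In the early part of sterol synthesis, from mevalonate to squalene, 7 of 7 enzymes were lower on HFD in all 3 fits, and 4 of 7 fell on deposited TPM and 3 of 7 on the protein-coding scale, where 17.3% and 5.94% of all genes were called lower, with medians of -0.96 and -0.41 (-0.39 and -0.03 for all genes). Fdps, farnesyl diphosphate synthase (chr3:89093588-89101967 of GRCm38.p6), was at 28.6 and 21.5 in WT-NCD replicates 1 and 2, 35, 44 and 9.31 in Casp11-/- NCD, 6.84, 11.3 and 10.1 in WT-HFD and 8.84, 10.4 and 7.2 in Casp11-/- HFD, on the protein-coding scale, and at 16.3 in WT-NCD replicate 3. All NCD libraries but Casp11-/- NCD replicate 3 were above every HFD library. For Fdps the log2 fold change was -1.36 (SE 0.337, adjusted p = 0.0218 by limma) on the protein-coding scale and -2.01 (adjusted p = 0.000737 by limma) on deposited TPM, both without WT-NCD replicate 3, and -1.71 (adjusted p = 0.122 by limma) with all 12 libraries. Mvd, the decarboxylase that makes isopentenyl diphosphate, was at 3.8 and 6.53 in WT-NCD replicates 1 and 2, 8.49, 5.47 and 5.25 in Casp11-/- NCD, 1.22, 1.76 and 4.51 in WT-HFD and 1.92, 1.96 and 2.13 in Casp11-/- HFD, and the value in WT-HFD replicate 2 is the floor. The fitted log2 change was -1.09 (SE 0.247, adjusted p = 0.0161 by limma) on the protein-coding scale and -1.61 (adjusted p = 0.00651 by limma) on deposited TPM. Idi1, which interconverts both isopentenyl isomers, was at 3.33 and 4.75 in WT-NCD replicates 1 and 2, 6.92, 5.32 and 5.41 in Casp11-/- NCD, 3.61, 4.53 and 3.27 in WT-HFD and 1.82, 2.05 and 1.83 in Casp11-/- HFD. The Casp11-/- HFD values were the 3 lowest, and the WT-HFD values overlapped those of NCD. For Idi1 the log2 fold change was -0.65 (SE 0.166, adjusted p = 0.0247 by limma) on the protein-coding scale and -1.20 (adjusted p = 0.0214 by limma) on deposited TPM. On the protein-coding scale the call of Fdps was lost without WT-NCD replicate 1 or 2, WT-HFD replicate 1 or Casp11-/- NCD replicate 1 (highest adjusted p = 0.0915), that of Mvd without WT-NCD replicate 2 (adjusted p = 0.105), and that of Idi1 without any of 5 libraries (highest adjusted p = 0.16). Hmgcs1, HMG-CoA synthase, which makes the precursor of mevalonate, was at 8.18 to 17 on NCD and 6.01 to 10.2 on HFD, with a log2 fold change of -0.33 (95% interval -0.73 to 0.07) on the protein-coding scale. The kinases Mvk and Pmvk and squalene synthase, Fdft1, were low, at most 3.85 in any of the 11 libraries, and were at the floor in 1 or 2 libraries each.

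In the late part, from squalene to cholesterol, 7 of 10 enzymes fell on deposited TPM and 5 of 10 on the protein-coding scale, where 17.3% and 5.94% of all genes were called lower, with medians of -1.19 and -0.62. Sqle, squalene epoxidase and a rate-controlling step (chr15:59315092-59331193), was at 9.29 and 11.9 in WT-NCD replicates 1 and 2, 15.3, 10.6 and 9.12 in Casp11-/- NCD, 3.9, 4.02 and 2.85 in WT-HFD and 6.3, 1.94 and 2.48 in Casp11-/- HFD, and at 8.66 in WT-NCD replicate 3. Every HFD library was below every NCD library, and the median on NCD was 3.16 times that on HFD. For Sqle the log2 fold change was -1.45 (SE 0.253, adjusted p = 0.0057 by limma) on the protein-coding scale and -2.05 (adjusted p = 0.000667 by limma) on deposited TPM, both without WT-NCD replicate 3, and -1.81 (adjusted p = 0.0704 by limma) with all 12 libraries. Cyp51, lanosterol demethylase (chr5:4080674-4104697), was at 10.5 and 12 in WT-NCD replicates 1 and 2, 13.7, 13.7 and 11 in Casp11-/- NCD, 6.33, 6.46 and 6.72 in WT-HFD and 5.62, 4.19 and 3.81 in Casp11-/- HFD, and at 5.47 in WT-NCD replicate 3. Its diets did not overlap in the 11 other libraries, while WT-NCD replicate 3 lay below 4 of the 6 HFD values. For Cyp51 the log2 fold change was -1.01 (SE 0.171, adjusted p = 0.0053 by limma) on the protein-coding scale and -1.63 (adjusted p = 0.0032 by limma) on deposited TPM, both without WT-NCD replicate 3, and -1.29 (adjusted p = 0.189 by limma) with all 12 libraries.

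The steps after Cyp51 split. Msmo1, the methylsterol oxidase, was at 15.3 and 19.9 in WT-NCD replicates 1 and 2, 20.5, 20.2 and 13.6 in Casp11-/- NCD, 10.5, 12.1 and 10.7 in WT-HFD and 4.84, 7.75 and 9.06 in Casp11-/- HFD, and at 10.2 in WT-NCD replicate 3, so that the diets did not overlap except for that library. The fitted log2 change was -0.92 (SE 0.204, adjusted p = 0.0142 by limma) on the protein-coding scale and -1.56 (adjusted p = 0.00543 by limma) on deposited TPM. Nsdhl, the sterol dehydrogenase of the same demethylation, was at 8.17 and 10.2 in WT-NCD replicates 1 and 2, 10.8, 6.61 and 7.71 in Casp11-/- NCD, 3.88, 4.81 and 5.96 in WT-HFD and 7.31, 3.92 and 4.17 in Casp11-/- HFD, and Casp11-/- HFD replicate 1 lay among the NCD libraries. The log2 fold change of Nsdhl was -0.71 (SE 0.213, adjusted p = 0.0435 by limma) on the protein-coding scale and -1.32 (adjusted p = 0.0207 by limma) on deposited TPM. Dhcr7, a reductase at the end of the pathway, was at 9.74 and 9.39 in WT-NCD replicates 1 and 2, 12.5, 10.9 and 6.65 in Casp11-/- NCD, 5.95, 5.89 and 6.23 in WT-HFD and 6.03, 5.41 and 5.35 in Casp11-/- HFD, and at 5.28 in WT-NCD replicate 3, which was below every HFD value, while the diets did not overlap in the 11 other libraries. That of Dhcr7 was -0.64 (SE 0.187, adjusted p = 0.0399 by limma) on the protein-coding scale and -1.26 (adjusted p = 0.02 by limma) on deposited TPM. The calls of Nsdhl and Dhcr7 on the protein-coding scale were the least often kept among the sterol enzymes, in 4 and 2 of 11 fits when each library was left out in turn (highest adjusted p = 0.192 and 0.152, both without WT-NCD replicate 2), while Msmo1 lost its call only without WT-NCD replicate 2 (adjusted p = 0.102).

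Ebp and Sc5d, the isomerase and desaturase of the sterol ring, did not follow. Sc5d was at 18 and 12.9 in WT-NCD replicates 1 and 2, 19.3, 25.8 and 19.1 in Casp11-/- NCD, 28.5, 43.2 and 20.6 in WT-HFD and 29.6, 19.4 and 30.4 in Casp11-/- HFD, so that 6 of 6 HFD libraries were above the NCD median of 19.1. Its fitted log2 change was 0.59 (95% interval 0.09 to 1.09, adjusted p = 0.0964 by limma) on the protein-coding scale and -0.07 on deposited TPM. Ebp was at 12.1 to 23 on NCD and 16 to 31.7 on HFD, with log2 fold changes of 0.15 (95% interval -0.35 to 0.65) and -0.51. Tm7sf2, a sterol reductase, was at 7.93 and 4.11 in WT-NCD replicates 1 and 2, 3.59, 9.31 and 1.67 in Casp11-/- NCD, 3.44, 5.9 and 2.02 in WT-HFD and 2.42, 1.96 and 2.61 in Casp11-/- HFD, with wide spread in both diets and a log2 fold change of -0.59 (adjusted p = 0.23 by limma) on the protein-coding scale against -1.12 (adjusted p = 0.0296 by limma) on deposited TPM. Lss, lanosterol synthase, was low and at the floor in 4 of the 11 libraries. It was at 1.34 to 3.44 on NCD and 1.14 to 1.76 on HFD, floor values included, and the 1.76 is the rescaled floor of WT-HFD replicate 2. The log2 fold changes of Lss were -0.37 (adjusted p = 0.1 by limma) and -0.82 (adjusted p = 0.0177 by limma). Hsd17b7, the ketosteroid reductase of the pathway, was at 2.42 to 4.49 on NCD and 1.96 to 3.79 on HFD and was called in neither fit.

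Summed over the 17 sterol enzymes, deposited TPM were 168 to 281 in the 5 NCD libraries and 79.8 to 106 in the 6 HFD libraries. The sums were 123 to 200 and 90.6 to 147 on the protein-coding scale, which overlap, and Sc5d and Ebp are among the more abundant enzymes. The sum of the 7 early enzymes did not overlap on that scale, at 36.8 to 77.6 on NCD and 21.6 to 32.1 on HFD. Taken singly, 0 of these 7 were lower in every HFD library than in all 5 NCD libraries on that scale.

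Counted gene by gene, 13 of the 34 were lower in all 6 HFD than in all 5 NCD libraries on deposited TPM and 1 was higher, where 5.60% of all genes tested were lower in that way and 0.390% higher. On the protein-coding scale 5 were lower (Sqle, Cyp51, Msmo1, Dhcr7 and Srebf2) and 2 higher (Scd1 and Elovl5), where 3.99% and 4.13% of all genes tested were.

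**Figure D3:**
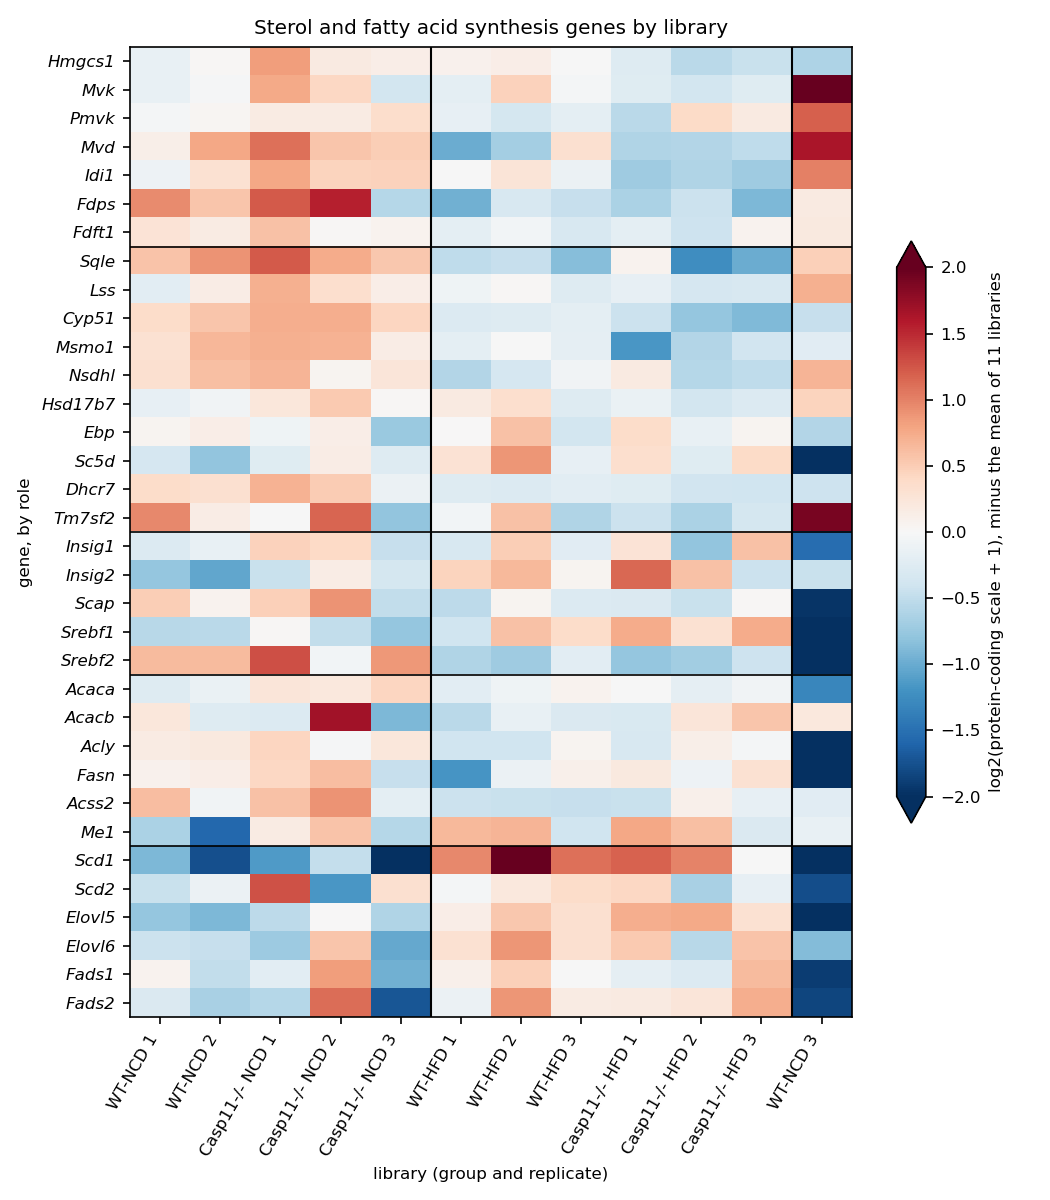
Log2(protein-coding scale + 1) of the 34 genes (rows, by role) in the 12 libraries (columns), each row less its mean over 11 libraries, in color from -2 to 2. Cyp51, Msmo1 and Dhcr7 are below their row mean in every HFD library and Sqle in all but Casp11-/- HFD replicate 1, Elovl5 is above it in every HFD library and Scd1 in all but Casp11-/- HFD replicate 3, and WT-NCD replicate 3, at the right, follows neither pattern.

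The promoters of these enzymes share a box that the choice of genes did not use. RefSeq promoters of GRCm38.p6, from 250 bases before to 50 after the start, were listed for 28 of the 34 genes (6, among them Fdps, Fdft1 and Sqle, had none listed). CCAAT, the box bound by NF-Y, a known partner of the SREBPs, was in 24 of the 28 on either strand (85.7%), and in 14 of 14 sterol enzymes, against 41.1% of all 27025 genes with a promoter and 42.3% of the 17491 protein-coding ones. The Sp1 box GGGCGG was in 22 of 28 (78.6%, against 38.2% and 49.2%), and the E-box CACGTG in 6 (21.4%, against 8.09% and 8.91%). The core of the sterol regulatory element, searched as TCACNCCAC, was in 1 of 28, Hmgcs1 (3.57%, against 1.44% and 1.41%). The classical element was in 0 (against 0.0999% and 0.08%), as was the DR4 element of the liver X receptors (against 0.0148% and 0%). These 2 exact strings are so rare in all promoters that 0 of 28 says nothing about these genes. The classical element contains the core, and no other motif searched contains another. A match is a description of letters in this window and not a measured site.

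The 150 bases before the start are printed for Srebf2 and 5 sterol enzymes that fell in both fits, for Hmgcs1, which also has the sterol element core (tcaccccac near the left end), and for contrast for Sc5d, a sterol enzyme that was not lower on the protein-coding scale, and Elovl5, which rose on that scale. Capitals mark CCAAT or its reverse complement ATTGG.
Srebf2 (chr15:82147119-82147268, plus strand): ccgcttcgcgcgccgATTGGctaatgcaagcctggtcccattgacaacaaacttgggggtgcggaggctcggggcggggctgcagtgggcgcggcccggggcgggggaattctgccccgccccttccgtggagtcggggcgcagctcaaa
Hmgcs1 (chr13:119690201-119690350, plus strand): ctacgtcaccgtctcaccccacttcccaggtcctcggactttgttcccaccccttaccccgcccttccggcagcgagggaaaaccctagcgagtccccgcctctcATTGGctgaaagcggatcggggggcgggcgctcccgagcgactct
Mvd (chr8:122443423-122443572, minus strand): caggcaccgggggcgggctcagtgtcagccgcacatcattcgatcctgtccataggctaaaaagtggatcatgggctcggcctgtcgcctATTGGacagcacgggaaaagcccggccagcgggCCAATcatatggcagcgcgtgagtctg
Idi1 (chr13:8885456-8885605, plus strand): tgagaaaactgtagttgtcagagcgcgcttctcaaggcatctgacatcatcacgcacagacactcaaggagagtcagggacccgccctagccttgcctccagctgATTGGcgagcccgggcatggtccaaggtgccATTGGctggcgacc
Cyp51 (chr5:4104698-4104847, minus strand): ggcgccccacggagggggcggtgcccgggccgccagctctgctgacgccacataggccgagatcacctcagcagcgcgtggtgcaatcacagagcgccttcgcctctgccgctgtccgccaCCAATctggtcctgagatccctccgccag
Msmo1 (chr8:64733579-64733728, minus strand): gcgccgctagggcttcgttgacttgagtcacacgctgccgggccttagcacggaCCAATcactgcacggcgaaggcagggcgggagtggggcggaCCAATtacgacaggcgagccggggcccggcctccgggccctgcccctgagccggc
Nsdhl (chrX:72918371-72918520, plus strand): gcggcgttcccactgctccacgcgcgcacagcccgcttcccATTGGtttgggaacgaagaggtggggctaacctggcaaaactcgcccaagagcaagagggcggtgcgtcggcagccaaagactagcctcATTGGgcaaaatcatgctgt
Sc5d (chr9:42264301-42264450, minus strand): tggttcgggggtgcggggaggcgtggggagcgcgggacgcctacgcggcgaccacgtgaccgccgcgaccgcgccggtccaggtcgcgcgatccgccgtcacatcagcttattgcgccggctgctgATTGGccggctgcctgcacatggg
Elovl5 (chr9:77917215-77917364, plus strand): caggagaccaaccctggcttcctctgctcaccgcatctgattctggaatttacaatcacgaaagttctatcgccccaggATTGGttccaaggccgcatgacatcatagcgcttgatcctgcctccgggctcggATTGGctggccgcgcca

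Mvd, Idi1, Msmo1, Nsdhl and Elovl5 had 2 boxes in these 150 bases and the other 4 genes 1. The box was therefore present in the promoter of Elovl5, which rose, and of Sc5d as well as in those of the genes that fell.

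Among the control genes, Srebf2 and Srebf1 moved apart. Srebf2 (chr15:82147269-82205379) was at 33.9 and 34 in WT-NCD replicates 1 and 2, 54, 20.7 and 40.0 in Casp11-/- NCD, 13.8, 12.8 and 18.5 in WT-HFD and 12.2, 13 and 15.9 in Casp11-/- HFD, and at 4.24 in WT-NCD replicate 3. Every HFD library was below all 5 NCD libraries, of which Casp11-/- NCD replicate 2 was the lowest. For Srebf2 the log2 fold change was -1.23 (SE 0.24, adjusted p = 0.00811 by limma) on the protein-coding scale and -1.90 (adjusted p = 0.00294 by limma) on deposited TPM, both without WT-NCD replicate 3, and -1.26 (adjusted p = 0.364 by limma) with all 12 libraries. Srebf1 (chr11:60199084-60224186) was at 18.6 and 18.7 in WT-NCD replicates 1 and 2, 28.3, 19.4 and 15.7 in Casp11-/- NCD, 20.7, 42.4 and 36.1 in WT-HFD and 46.9, 34.4 and 47 in Casp11-/- HFD, and at 4.85 in WT-NCD replicate 3. The diets overlapped, since Casp11-/- NCD replicate 1 was above WT-HFD replicate 1. For Srebf1 the log2 fold change was 0.87 (SE 0.233, adjusted p = 0.0303 by limma) on the protein-coding scale and 0.20 (adjusted p = 0.632 by limma) on deposited TPM, both without WT-NCD replicate 3, and 0.67 (adjusted p = 0.524 by limma) with all 12 libraries. The call of Srebf1 on the protein-coding scale was kept in 6 of 11 leave-outs (highest adjusted p = 0.123), and that of Srebf2 in 10, with adjusted p = 0.053 without WT-NCD replicate 2.

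The ratio of both genes within a library does not depend on the scaling. The log2 ratio of Srebf2 to Srebf1 was 0.86 in both WT-NCD replicates 1 and 2, 0.93, 0.10 and 1.35 in Casp11-/- NCD, -0.58, -1.73 and -0.96 in WT-HFD and -1.95, -1.41 and -1.56 in Casp11-/- HFD. Srebf2 was thus the more abundant transcript in 5 of 5 NCD libraries and Srebf1 in 6 of 6 HFD libraries. The mean was 0.82 ± 0.45 (SD, n = 5) on NCD and -1.36 ± 0.51 (SD, n = 6) on HFD, a difference of -2.19, with an exact permutation p of 0.00217, the smallest that the 462 splits allow (adjusted over the 4 gene pairs compared, 0.00866). The difference was -1.95 in WT and -2.43 in Casp11-/- mice. In WT-NCD replicate 3 the ratio was -0.20.

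Insig2 and Insig1 encode the proteins that hold SCAP back. Insig2 was at 2.5 and 1.91 in WT-NCD replicates 1 and 2, 3.39, 5.66 and 3.66 in Casp11-/- NCD, 7.18, 8.38 and 5.19 in WT-HFD and 12.2, 7.95 and 3.45 in Casp11-/- HFD, with Casp11-/- HFD replicate 3 and WT-HFD replicate 3 among the NCD values. The log2 fold change of Insig2 was 0.97 (SE 0.27, adjusted p = 0.0346 by limma) on the protein-coding scale and 0.41 (adjusted p = 0.369 by limma) on deposited TPM. This call was kept in 3 of 11 leave-outs, with an adjusted p of up to 0.151. Insig1 was at 22.8 and 25 in WT-NCD replicates 1 and 2, 38.6, 36.9 and 20.0 in Casp11-/- NCD, 22.1, 39.5 and 23.6 in WT-HFD and 33.7, 15.7 and 42.3 in Casp11-/- HFD, and its diets overlapped throughout, with log2 fold changes of 0.04 (95% interval -0.58 to 0.66) and -0.63 on the respective scales. The log2 ratio of Insig2 to Insig1 was -3.11 ± 0.53 (SD, n = 5) on NCD and -2.02 ± 0.91 (SD, n = 6) on HFD (exact permutation p = 0.0455, adjusted over the 4 pairs 0.0606). Scap, the escort protein of the SREBPs, was at 31.9 and 23.7 in WT-NCD replicates 1 and 2, 31.8, 42.8 and 15.6 in Casp11-/- NCD, 15.3, 23.3 and 18.5 in WT-HFD and 18.3, 16.3 and 23 in Casp11-/- HFD. All 6 HFD values were below 4 of the 5 NCD values, and the log2 fold change was -0.53 (adjusted p = 0.166 by limma) on the protein-coding scale and -1.19 (adjusted p = 0.0213 by limma) on deposited TPM.

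**Figure D4:**
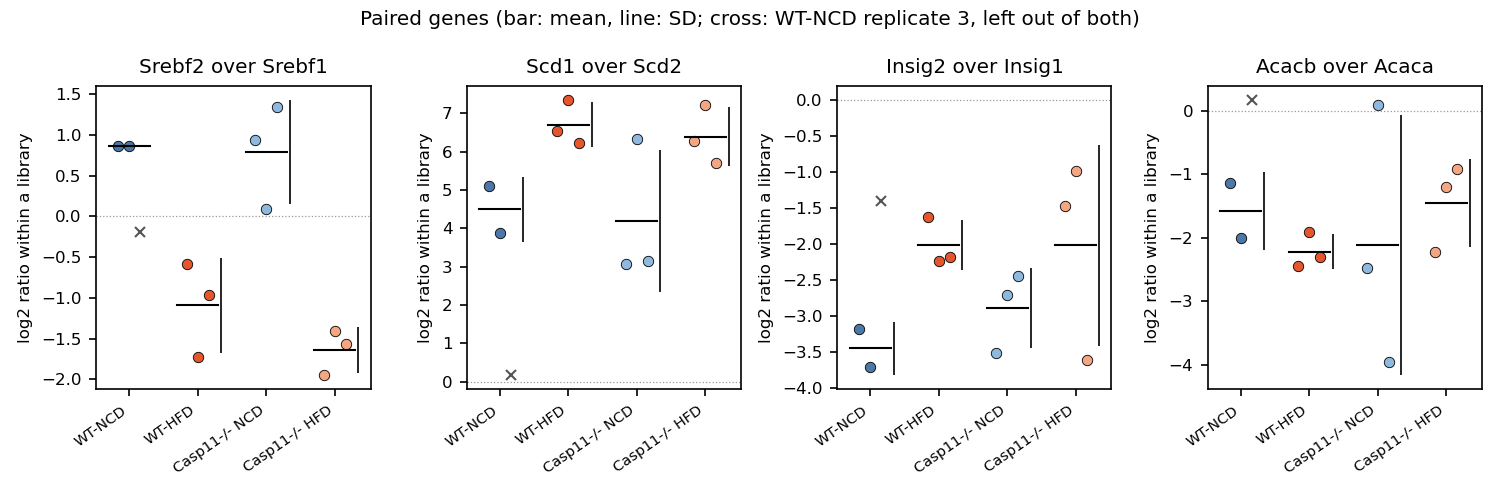
Log2 ratio of 2 related genes within each library (vertical axes) in the 4 groups of mice (horizontal axes), with points for libraries, bars for means, lines for SD and a cross for WT-NCD replicate 3. The ratio of Srebf2 to Srebf1 is above 0 in all 5 NCD libraries and below 0 in all 6 HFD libraries, and that of Scd1 to Scd2 is lower in 4 of the 5 NCD libraries than in any HFD library.

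At the end of fatty acid synthesis, Scd1, the desaturase that makes oleate from stearate (chr19:44394450-44407709), was the most abundant of the 34 genes in each of the 11 libraries and had the largest fold change on the protein-coding scale. It was at 423 and 234 in WT-NCD replicates 1 and 2, 362, 571 and 194 in Casp11-/- NCD, 1544, 3274 and 1695 in WT-HFD and 1803, 1580.0 and 788 in Casp11-/- HFD, and at 4.92 in WT-NCD replicate 3. Each of the 6 HFD libraries lay above every one of the 5 NCD libraries, and the median on HFD was 4.53 times that on NCD. For Scd1 the log2 fold change was 2.31 (SE 0.397, adjusted p = 0.00557 by limma) on the protein-coding scale and 1.62 (adjusted p = 0.0144 by limma) on deposited TPM, both without WT-NCD replicate 3, and 2.76 (adjusted p = 0.267 by limma) with all 12 libraries. Scd2, a related desaturase beside it on the same chromosome (chr19:44293676-44306864), was at 12.4 and 15.8 in WT-NCD replicates 1 and 2, 43.1, 7.14 and 21.8 in Casp11-/- NCD, 16.8, 20.0 and 22.5 in WT-HFD and 23.3, 10.6 and 15.2 in Casp11-/- HFD, and its diets overlapped, with log2 fold changes of 0.09 (95% interval -0.70 to 0.88) on the protein-coding scale and -0.57 on deposited TPM. The log2 ratio of Scd1 to Scd2 was 4.31 ± 1.39 (SD, n = 5) on NCD and 6.55 ± 0.63 (SD, n = 6) on HFD (exact permutation p = 0.00866, adjusted over the 4 pairs 0.0173). It was 2.21 higher on HFD in WT and 2.21 higher in Casp11-/- mice. The pair is similar in sequence, and how reads were divided between both genes is not given in the sources used here. The adjusted p of this ratio was 0.0635 without WT-HFD replicate 1 or 2 or without Casp11-/- HFD replicate 2. Scd1 is highly expressed by hepatocytes. On the protein-coding scale their summed markers were at 24820 and 15490 in WT-NCD replicates 1 and 2 and 6329, 32010 and 5304 in Casp11-/- NCD. On HFD the sums were 27460, 25680 and 12960 in WT and 25110, 27030 and 29210 in Casp11-/- mice. The part of hepatocyte RNA in the level of Scd1 was not tested.

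Elovl5, an elongase of polyunsaturated chains (chr9:77917365-77984519), was at 44.9 and 41.1 in WT-NCD replicates 1 and 2, 53.5, 77.7 and 50.5 in Casp11-/- NCD, 85.1, 113 and 96.5 in WT-HFD and 129, 132 and 95.4 in Casp11-/- HFD, and at 7.51 in WT-NCD replicate 3. Without that library the diets did not overlap on this scale, and they did on deposited TPM, where the NCD libraries were at 58.4 to 82.4 and the HFD libraries at 64.5 to 116. The fitted log2 change was 1.07 (SE 0.204, adjusted p = 0.00769 by limma) on the protein-coding scale and 0.38 (adjusted p = 0.372 by limma) on deposited TPM. The call on the protein-coding scale was lost only without WT-NCD replicate 2 (adjusted p = 0.0598). Elovl6, which extends palmitate, was at 3.52 to 12.5 on NCD and 5.23 to 15.9 on HFD (log2 fold change 0.76, limma adjusted p = 0.107, protein-coding scale). The front-end desaturases Fads1 and Fads2 overlapped between the diets, with log2 fold changes of 0.28 (95% interval -0.39 to 0.95) and 0.77 (95% interval -0.11 to 1.66). Of the 6 desaturases and elongases, 6 were higher on HFD on the protein-coding scale and 2 of them passed the test (7.90% of all genes were called higher), with a median of 0.77. On deposited TPM without WT-NCD replicate 3, 4 of 6 were higher and 1 passed, where 192 of 17950 genes were called higher. The median there was 0.13 (-0.39 for all genes).

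The genes that supply acetyl-CoA and assemble palmitate showed no call on the protein-coding scale, where 5 of the 6 were lower on HFD with a median of -0.22. Acaca and Acacb encode the acetyl-CoA carboxylases. Acaca was at 5.69 and 6.24 in WT-NCD replicates 1 and 2, 8.4, 8.22 and 9.77 in Casp11-/- NCD, 5.9, 6.56 and 7.43 in WT-HFD and 6.93, 6.01 and 6.59 in Casp11-/- HFD, with a log2 fold change of -0.13 (95% interval -0.48 to 0.22). Acacb was at 2.58 and 1.55 in WT-NCD replicates 1 and 2, 1.52, 8.75 and 0.63 in Casp11-/- NCD, 1.09, 1.76 and 1.5 in WT-HFD and 1.48, 2.62 and 3.48 in Casp11-/- HFD, floor values included, and its ratio to Acaca did not separate the diets (exact permutation p = 0.935, adjusted over the 4 pairs 0.935). Fasn, fatty acid synthase, was at 13.2 to 28.9 on NCD and 7.65 to 23.1 on HFD, with a log2 fold change of -0.29 (95% interval -0.87 to 0.30). Acly, ATP citrate lyase, was at 22.5 to 30.9 and 16.9 to 24.8 (log2 fold change -0.36, adjusted p = 0.185 by limma), and Acss2, which makes acetyl-CoA from acetate, at 8.62 to 19.6 and 6.99 to 10.8 (log2 fold change -0.66, adjusted p = 0.0713 by limma). Both passed on deposited TPM, with log2 fold changes of -1.03 (adjusted p = 0.0472 by limma) and -1.29 (adjusted p = 0.0179 by limma). Me1, malic enzyme, a source of NADPH, was the member of this group that was higher, at 1.82 to 11.4 on NCD and 5.37 to 13.3 on HFD (log2 fold change 0.86, adjusted p = 0.0795 by limma).

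**Figure D5:**
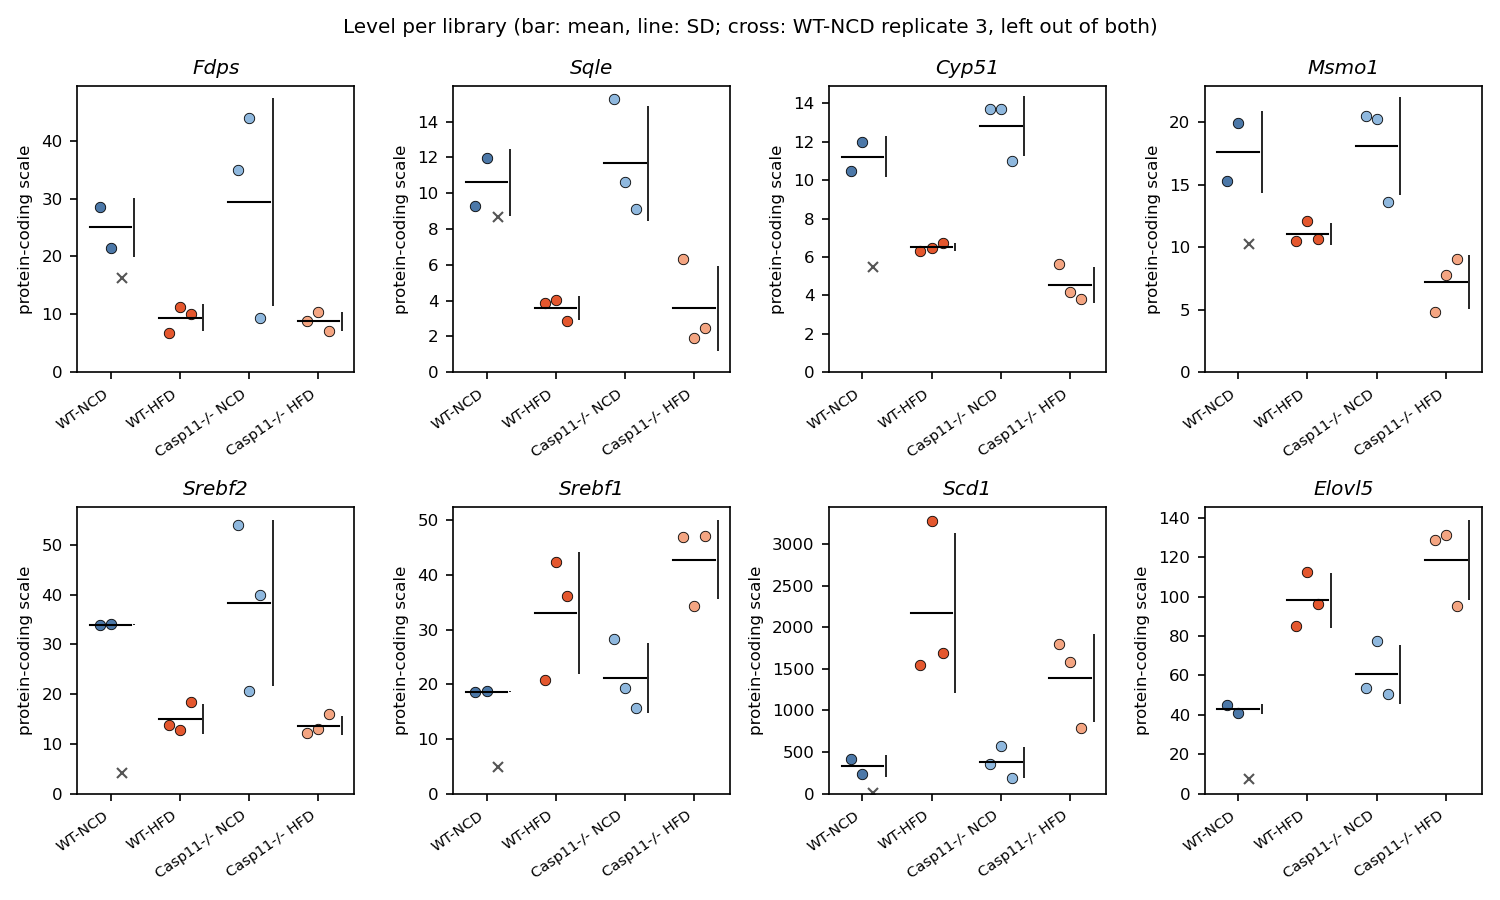
Level of 8 genes on the protein-coding scale (vertical axes, from 0) in the 4 groups of mice (horizontal axes), with points for libraries, bars for means, lines for SD and a cross for WT-NCD replicate 3. Sqle, Cyp51, Msmo1 and Srebf2 are lower and Scd1 and Elovl5 higher in every HFD library than in the 5 NCD libraries, while Fdps and Srebf1 overlap.

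Within WT mice, limma called 0 of the 34 genes with all 12 libraries, where 0.113% of all genes were called, and 6 had an unadjusted p under 0.05, where 6.96% of all genes did. Without WT-NCD replicate 3, Fdps and Sqle fell on deposited TPM (2.18% of all genes called). On the protein-coding scale 0 were called (0.954% of all genes), and 11 had an unadjusted p under 0.05, 5 higher and 6 lower (19.2% of all genes). The smallest adjusted p there was that of Scd1, 0.0529, with a log2 fold change of 2.70 (SE 0.592). Within Casp11-/- mice, 0 genes were called with all libraries (0.00% of all genes), and 13 had an unadjusted p under 0.05 (8.48% of all genes). Without WT-NCD replicate 3, which enters that comparison through the shared spread and the set of genes tested, Fdps, Sqle and Cyp51 fell on deposited TPM (1.10% of all genes), and Idi1, Sqle, Cyp51, Msmo1 and Srebf2 fell on the protein-coding scale (3.75% of all genes). Their log2 fold changes in Casp11-/- mice on that scale were -1.24, -1.56, -1.32, -1.23 and -1.33, with limma adjusted p of 0.021, 0.0297, 0.0185, 0.0305 and 0.0419. In WT mice, with 2 NCD libraries, the same 5 genes were at -0.06, -1.34, -0.70, -0.62 and -1.14. Both counts on the protein-coding scale rose without Casp11-/- NCD replicate 2, to 3 in WT and 12 in Casp11-/- mice, and the latter was 0 without Casp11-/- NCD replicate 1 or Casp11-/- HFD replicate 3.

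A difference of the diet effect between the genotypes was tested as an interaction, and 0 of the 34 genes were called with all libraries (0.00% of all genes) or on the protein-coding scale without WT-NCD replicate 3 (0.00%). At an unadjusted p under 0.05 there were 0 of the 34 with all libraries (0.790% of all genes). On deposited TPM without WT-NCD replicate 3 there were also 0 (467 of 17950 genes). On the protein-coding scale there were 2, Idi1 and Hmgcs1, a count near the share over all genes (5.43%). Idi1 had an interaction of -1.18 (SE 0.332, 95% interval -1.90 to -0.46, adjusted p = 0.853 by limma), and Hmgcs1 of -0.92 (SE 0.372, 95% interval -1.72 to -0.11, adjusted p = 0.853 by limma), both not significant after adjustment. Hmgcs1 was at 8.18 and 9.34 in WT-NCD replicates 1 and 2, 17, 10.4 and 10.1 in Casp11-/- NCD, 9.78, 10.2 and 9.05 in WT-HFD and 7.5, 6.01 and 6.49 in Casp11-/- HFD, with the HFD values below those of NCD in Casp11-/- mice and overlapping in WT mice. For Sqle the 95% interval of the interaction was -1.32 to 0.88 and for Scd1 -2.49 to 0.96. Differences of the diet effect between the genotypes within these intervals remain compatible with the data.

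Between the genotypes on NCD, 0 of the 34 genes were called with all libraries (0.00% of all genes) or on the protein-coding scale (0.00%). Me1 alone had an unadjusted p under 0.05, in both fits (1.50% and 3.91% of all genes), with a log2 difference of 1.16 (SE 0.466, adjusted p = 0.989 by limma) in Casp11-/- mice on the protein-coding scale. Between the genotypes on HFD, 0 were again called in either fit (0.00% and 0.00% of all genes). There, 0 of the 34 had an unadjusted p under 0.05 with all libraries (0.154% of all genes) and 2 on the protein-coding scale (2.64% of all genes), Idi1 at -0.72 and Msmo1 at -0.59, both lower in Casp11-/- mice (limma adjusted p = 0.9999 for each). On deposited TPM without WT-NCD replicate 3, 0 of the 34 had an unadjusted p under 0.05 on NCD (581 of 17950 genes). On HFD there were also 0 in that fit (135 of 17950 genes). The comparisons on 1 diet share their libraries with the diet comparisons above.

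Of 36 other genes of these pathways, from mevalonate branches to lipid assembly, 0 passed with all 12 libraries over both genotypes. Without WT-NCD replicate 3, 7 of the 35 tested fell and 0 rose on deposited TPM, and on the protein-coding scale 0 fell and 2 rose, with medians of -0.47 and 0.07. Of all genes, 17.3% were called lower on deposited TPM and 7.90% higher on the protein-coding scale, so these counts were near or under the background. The 2 genes that rose were Nr1h3 and Acsl4. Nr1h3, which encodes the liver X receptor alpha, was at 5.94 and 3.81 in WT-NCD replicates 1 and 2, 6.6, 16.6 and 10.6 in Casp11-/- NCD, 21.9, 19.6 and 21.8 in WT-HFD and 12.1, 12.3 and 15.4 in Casp11-/- HFD, with a log2 fold change of 1.11 (SE 0.227, adjusted p = 0.01 by limma). The HFD values of WT mice were the 3 highest, and Casp11-/- NCD replicate 2 lay above the HFD values of Casp11-/- mice. Acsl4, an acyl-CoA synthetase that prefers polyunsaturated chains, was at 6.84 and 7.77 in WT-NCD replicates 1 and 2, 9.77, 7.99 and 14.1 in Casp11-/- NCD, 14.8, 18.1 and 17.9 in WT-HFD and 12.4, 11.2 and 12.1 in Casp11-/- HFD, with a log2 fold change of 0.65 (SE 0.184, adjusted p = 0.0371 by limma) and Casp11-/- NCD replicate 3 among the HFD values.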

How the data were processed

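RNA of the liver immune cell fraction was measured in 12 mice, 3 in each of 4 groups taken from the labels. The authors prepared strand-specific, randomly primed total RNA libraries and aligned the reads with STAR (its version is not given in the sources used here) to mm10, GRCm38.p6. The deposited score values are the TPM that they then computed with Qlucore Omics Explorer, on a linear scale and raised to a floor of 1.01. Read counts were not used here, so depth and counting error are unknown. The limma p-values set differences between groups against the spread between libraries of a group, in which mouse and preparation are not separated.

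All genes that exceeded the floor in 3 or more libraries (19498) were compared in limma 3.58.1 (R 4.3.3) on log2(TPM + 1), which understates changes of low genes, with 4 group means, two-sided tests and a prior spread that follows the mean level. The Benjamini-Hochberg threshold was 0.05 over every gene in the fit. Also fitted were the 11 libraries without WT-NCD replicate 3 (17950 genes) and, in those, 12365 protein-coding genes on a scale in which the protein-coding TPM above the floor (21698 genes, among 39346 matched to RefSeq by symbol) had a common total. The comparison over both genotypes weights the WT and Casp11-/- diet contrasts equally. Ratios of related genes were compared by two-sided exact permutation in 11 libraries. The model code was tested on simulated data. Python 3.11.15, pandas 2.3.3, numpy 2.4.6 and matplotlib 3.10.9 were used.

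The members, lists and tests were chosen with earlier results of these data known. Values are given per library for members past the threshold with all libraries or on the protein-coding scale, the 8 members of smallest p over both genotypes, the 5 control genes and the 4 gene pairs, and results for up to 5 other pathway genes past the threshold. The heading of the file column of Casp11-/- HFD replicate 2 abbreviates the genotype differently from the others.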

Additional observations from a re-analysis of the deposited data

How the results depend on the processing

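The number of called genes of the 34 depended on WT-NCD replicate 3. Beyond the 3 fits given above, the share of all genes called was not computed for the alternatives in this section. Whether their counts moved with the calls over all genes was not tested. With all 12 libraries, HFD against NCD over both genotypes had 0 calls, with 5 above the floor in every library, 3 with protein-coding genes rescaled, 2 with a robust prior spread, 13 on the protein-coding scale without WT-NCD replicate 3, and 0 to 16 with each library left out in turn (16 without WT-NCD replicate 3, 5 without Casp11-/- NCD replicate 2). WT-HFD against WT-NCD had 0, and 0 to 2 with each library left out. Casp11-/- HFD against Casp11-/- NCD had 0, with 5 on the protein-coding scale without WT-NCD replicate 3, 1 with the spread of the 2 groups compared and 0 to 3 with each library left out. The genotype comparisons within each diet and the interaction had 0 calls in every alternative run. The median log2 fold change over the 34 genes for WT-HFD against WT-NCD went from -0.21 to 0.11 with protein-coding genes rescaled, and ran from -0.73 to 0.14 with each library left out.

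Same-numbered libraries deviated together (correlation over 0.1) in 7 of 18 pairs with all libraries and 8 of 15 without WT-NCD replicate 3. Differently numbered pairs were not examined beside them, so these counts cannot show whether the numbers pair the mice. A replicate block gave 0 calls in each comparison with all libraries. Without WT-NCD replicate 3 the replicate block gave 22 calls over both genotypes, 5 in WT and 8 in Casp11-/- mice on deposited TPM, and 14, 2 and 8 on the protein-coding scale.

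The alternatives to the fits without WT-NCD replicate 3 were chosen after seeing the data. On deposited TPM, a filter of 1 value above the floor gave 0 calls in WT (main 2) and 0 in Casp11-/- mice (main 3), and for Casp11-/- mice a filter above the floor in every library gave 6, pseudocounts of 0.1 and 0.01 gave 5 and 7, and a robust prior spread gave 7. On the protein-coding scale, a filter above the floor in every library and a robust prior spread each gave 1 call in WT (main 0). With each library left out, deposited TPM gave 4 to 23 calls over both genotypes, 0 to 8 in WT and 0 to 21 in Casp11-/- mice, and the protein-coding scale gave 3 to 18, 0 to 3 and 0 to 12. Where a second WT-NCD library is left out, the lone one is assumed to vary like the other groups.

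Some directions over both genotypes reversed for genes with no call with all libraries. With protein-coding genes rescaled, Ebp turned to 0.27, Insig1 to 0.26, Acaca to 0.056, Acly to 0.0949, Fasn to 0.16 and Scd2 to 0.34, and without WT-NCD replicate 3 as well, Ebp to 0.15, Insig1 to 0.0415 and Scd2 to 0.0919. With each library left out, Sc5d ran from -0.0742 (without WT-NCD replicate 3) to 0.61, Insig1 from -0.63 to 0.0266 (without WT-NCD replicate 2), Scd2 from -0.61 to 0.18 and Fads1 from -0.39 to 0.37. The log2 ratio of Scd1 to Scd2 differed between diets by 1.93 to 2.75 with each library left out, that of Insig2 to Insig1 by 0.89 to 1.41 (1.41 without Casp11-/- HFD replicate 3, adjusted exact permutation p = 0.0159), and that of Acacb to Acaca by -0.45 to 0.56, and by -0.28 with all 12 libraries. Of the values of single genes under the alternatives, 613 of 674 kept their direction and their side of the threshold with all libraries, 215 of 269 without WT-NCD replicate 3 and 178 of 220 on the protein-coding scale. The causes of these changes were not tested. The planned fit with array weights gave no usable value.

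Depth is unknown, so counting error has no estimate here. Of the 34 genes, Lss was at the floor in 4 of 11 libraries, Pmvk, Fdft1 and Acacb in 2 each, and Mvk and Mvd in 1 each, and changes of these genes have the floor as their lower limit.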
